A study of Mus musculus with 20 samples.

Results

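Matrix metalloproteinases (Mmp genes), the secreted proteinases of the Adamts group and their tissue inhibitors (Timp genes) were followed in mouse salivary glands at the ages of 4, 8, 12 and 16 weeks. The members were all genes of the array annotation named Mmp, Adamts or Timp with a number, and only probe sets annotated to 1 symbol were used. They were 37 of 18194 measured genes, namely 18 Mmp, 15 Adamts and 4 Timp genes, with 70 of 34958 probe sets. The probe set of highest mean signal over the 20 arrays stood for each gene, and 19 members had several to choose from. The glands, free of lymph nodes, came from 5 untreated mice of the C57BL/6J strain at each age, labelled as male. The RNA of each mouse was hybridised to an Affymetrix array of its own, so that each mouse was measured at 1 age only. The values are log2 signals, on which a difference of 1 is a doubling.

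Mmp enzymes are zinc proteinases that cleave collagens and other proteins of the extracellular matrix, and most are secreted as inactive proenzymes. Adamts enzymes cleave proteoglycans such as aggrecan and versican, or trim procollagens. Timp proteins bind the active site of Mmp enzymes. The balance of proteinases and inhibitors helps to set how fast the matrix around acini, ducts and vessels is turned over.

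Only 1 of the 37 members passed the test in any of the comparisons between ages, where a gene was called at a limma p-value under 0.05 after Benjamini-Hochberg adjustment over all 18194 genes. This was at 16 relative to 4 weeks, where 3.63% of all genes were called, so that 1 of 37 is near the share of all genes. The chosen probe set of Timp3, which encodes an inhibitor held in the matrix, fell by 0.77 on the log2 scale at 16 weeks relative to 4 weeks (limma adjusted p = 0.0446). The other 3 probe sets of the gene did not pass. Of the 4 probe sets only 2 had a negative sign, and their log2 fold changes ran from -0.77 to 0.37. The other 36 members passed in none of the 4 comparisons of ages and not in the F-test over all ages. The members' standard errors were about 0.12 to 0.24, and the 95% interval of the difference between 8 and 4 weeks lay within 1 log2 unit of no difference for 35 of 37 members, against 78.7% of all genes.

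Of the 37 members, 9 are neighbours on chromosome 9, in the RefSeq order Mmp13, Mmp12, Mmp1b, Mmp3, Mmp1a, Mmp10, Mmp8, Mmp20 and Mmp7 (assembly GRCm38.p6), with 4 other genes between them. Among them are the collagenases, which cut fibrillar collagen, the stromelysins Mmp3 and Mmp10, the matrilysin Mmp7, the macrophage elastase Mmp12 and the enamel proteinase Mmp20. Promoter windows, from 250 bases before to 50 after a start of transcription, were given by RefSeq for 23 members. The letters TGAGTCA or TGACTCA, the form bound by AP-1 (Fos and Jun) on either strand, occurred in the windows of 7 of these 9 neighbours and of 0 of the other 14 members, against 5.20% of all 32851 windows. The stretches around these letters are shown because they set the neighbours apart from the other members, 41 bases each from the strand of the gene (RefSeq, GRCm38.p6), with the match in capitals.
Mmp13 (chr9:7272462-7272502, + strand): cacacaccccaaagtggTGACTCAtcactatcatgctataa
Mmp12 (chr9:7347313-7347353, + strand): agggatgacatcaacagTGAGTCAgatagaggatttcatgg
Mmp1b (chr9:7388096-7388136, - strand): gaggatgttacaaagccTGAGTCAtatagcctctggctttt
Mmp3 (chr9:7445759-7445799, + strand): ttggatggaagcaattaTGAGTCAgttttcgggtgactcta
Mmp1a (chr9:7464051-7464091, + strand): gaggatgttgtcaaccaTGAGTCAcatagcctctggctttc
Mmp10 (chr9:7502262-7502302, + strand): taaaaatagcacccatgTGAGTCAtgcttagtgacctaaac
Mmp7 (chr9:7692010-7692050, + strand): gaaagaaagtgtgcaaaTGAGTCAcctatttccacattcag

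The matches began between 35 and 93 bases before the start, and the stretches of Mmp1a and Mmp1b were identical at 34 of 41 bases. The letters TATAAA or TTTATA, a form of the TATA box, were found in the windows of all 9 neighbours and of 1 of the other 14 members (Adamts1), against 13.6% of all windows. The order was the opposite for GGGCGG or CCGCCC, the core of a GC box. It was found in 0 of the 9 neighbours and 12 of the other 14 members, against 35.7% of all windows. The TATA letters of the neighbours lay at varied distances. They began 29, 28 and 26 bases before the start for Mmp10, Mmp1a and Mmp7, which had another match at 123. For Mmp20, Mmp1b, Mmp13, Mmp3 and Mmp8 they began at 58, 49, 16, 7 and 3 bases before it, and for Mmp12 after it. The neighbours' windows held 37.7 to 52.0% of G and C bases, and those of the other members 53.3 to 80.0% (median of all windows 52.7%). Timp3, the member that passed the test, had none of the AP-1 letters in its window, and its last 100 bases before the start, with 69.0% of G and C, are shown for contrast, with the GC box in capitals.
Timp3 (chr10:86300312-86300411, + strand): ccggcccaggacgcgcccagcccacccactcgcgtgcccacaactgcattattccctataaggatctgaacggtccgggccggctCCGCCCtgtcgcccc

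These letters describe the windows and do not show that a factor binds there. All 9 neighbours had positive log2 fold changes at 8 relative to 4 weeks, against 54.8% of all genes, with medians of 0.29 and 0.05. Of the neighbours 0 passed the test, against 7.39% of all genes (lowest limma adjusted p of the neighbours 0.0918). At 12 relative to 8 weeks 1 of 9 was positive with a median of -0.17, against 44.1% of all genes and a median of -0.05. At 16 relative to 4 weeks 9 of 9 were positive with a median of 0.16 and 0 called. Of all genes 50.9% were positive there, with a median of 0.01, and 3.63% were called. Signals were low for Mmp13, Mmp1a, Mmp1b, Mmp20, Mmp3 and Mmp12, with means by age of 2.25 to 3.88 (40th percentile of all genes 5.12). Mmp8, the collagenase of neutrophils, had 5.47, 5.31, 5.83, 4.94 and 5.64 in the mice of 8 weeks, against 5.39, 4.78, 5.11, 4.95 and 4.51 in those of 4 weeks. Both ages overlapped, and the log2 fold change of 0.49 had a limma adjusted p of 0.0975. Mmp13 had 2.65, 2.36, 2.97, 2.35 and 2.54 at 8 weeks, against 2.21, 2.28, 2.28, 2.13 and 2.36 at 4 weeks, with overlap by 1 mouse of 4 weeks and a log2 fold change of 0.32 (limma adjusted p = 0.0918). Mmp1a and Mmp1b are close copies of each other, and whether their probes also bind the transcript of the other was not tested. Of the 9 markers of neutrophils measured, 7 had positive and 2 negative signs at 8 relative to 4 weeks, with a median of 0.34. Their log2 fold changes ran from -1.33 to 0.50. At an unadjusted p under 0.05, 5 were higher and 1 lower, against 16.9% and 15.5% of all genes. Of these markers 0 passed the test in any comparison (lowest limma adjusted p at 8 weeks 0.0584). Their mean on single arrays lay between 5.27 and 5.80 at 8 weeks and between 5.24 and 5.63 at 4 weeks, and their part in the values of Mmp8 was not tested. In whole glands, fewer cells of a type and less RNA per cell cannot be told apart.

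**Figure D1:**
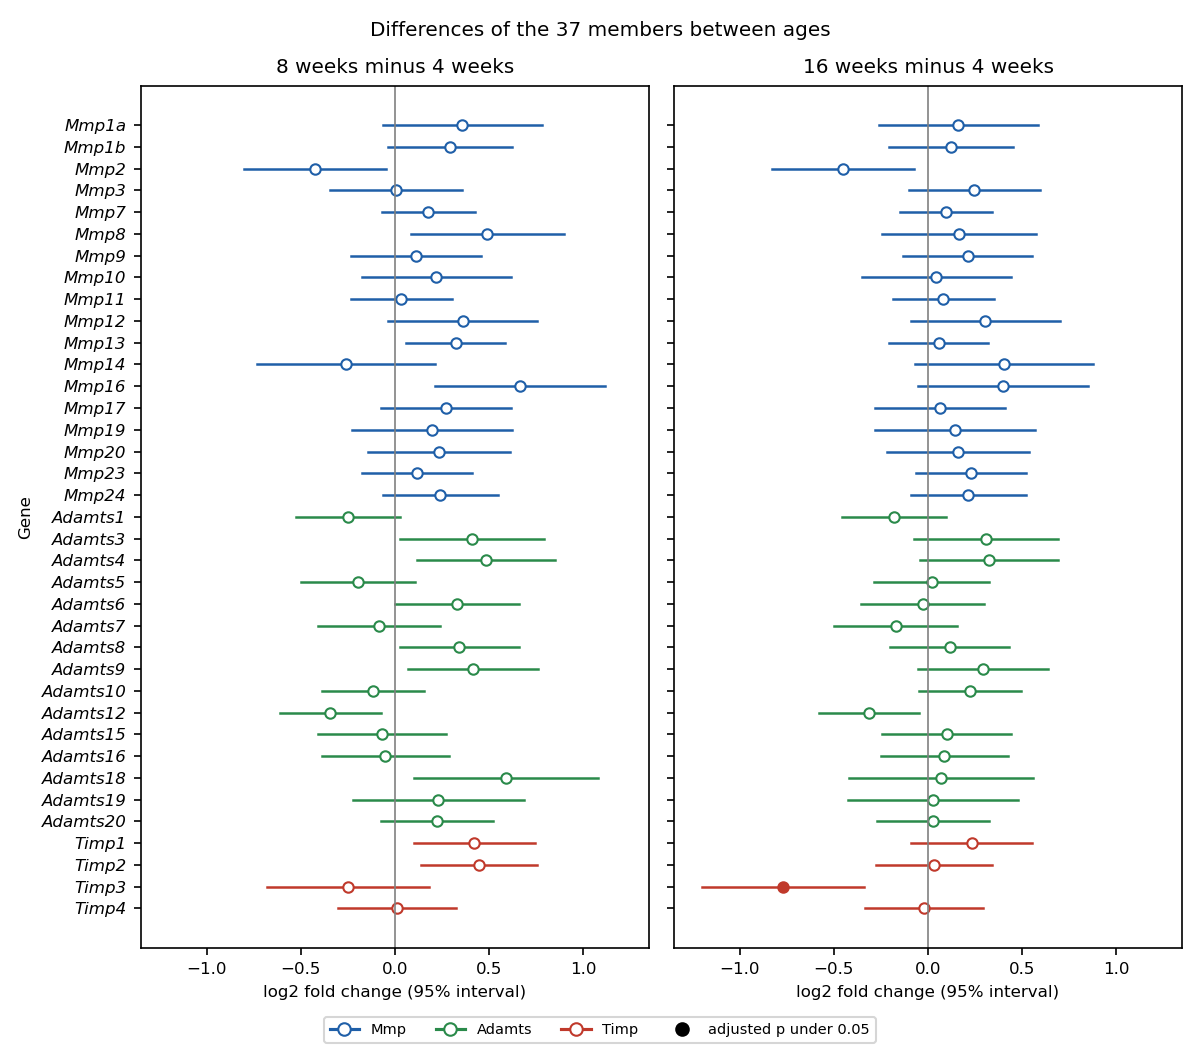
Differences of the 37 members in log2 signal, 8 minus 4 weeks on the left and 16 minus 4 weeks on the right, with lines for the 95% interval from limma and a filled point where the adjusted p was under 0.05. Points lie to the right of 0 for 27 members on the left and 30 on the right, and the 1 filled point is that of Timp3 at 16 weeks.

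Between 4 and 8 weeks of age, 0 of 37 members passed the test, against 7.39% of all genes called (3.26% higher, 4.13% lower). The share of all genes itself depended on single mice. It stood for 1345 genes, against 14 to 22 when replicate 4 or 5 of 4 weeks or replicate 3 or 5 of 8 weeks was left out and 2694 without replicate 4 of 8 weeks. At an unadjusted p under 0.05, 13 members did, against 32.4% of all genes. Of these 11 had a positive and 2 a negative sign, against 16.9% and 15.5% of all genes. The signs were positive for 27 of 37 members and for 54.8% of all genes, with medians of 0.22 and 0.05. The lowest limma adjusted p was 0.0587, for Mmp16.

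Mmp16, which encodes a membrane-type enzyme able to activate proMMP2, had log2 signals of 4.54, 4.80, 5.44, 4.95 and 4.26 at 4 weeks, 5.26, 5.32, 5.85, 5.27 and 5.62 at 8 weeks, 5.40, 4.75, 5.47, 5.05 and 5.24 at 12 weeks and 5.04, 5.25, 4.85, 5.89 and 4.96 at 16 weeks. The 5 mice of 8 weeks lay above 4 of the 5 mice of 4 weeks. The log2 fold change at 8 relative to 4 weeks was 0.67 (95% interval 0.21 to 1.12, limma adjusted p = 0.0587), and all 4 probe sets of the gene had a positive sign, between 0.02 and 0.67. It passed the test when replicate 3 of 4 weeks, replicate 4 of 8 weeks, or replicate 1 or 4 of 16 weeks was left out (limma adjusted p = 0.036, 0.0464, 0.0485 and 0.0439).

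Among the gelatinases, Mmp2 had 5.94, 5.95, 6.34, 6.48 and 6.30 at 4 weeks, 5.93, 6.45, 5.38, 5.69 and 5.45 at 8 weeks, 5.72, 5.65, 6.05, 5.67 and 5.82 at 12 weeks and 5.99, 5.58, 6.04, 5.66 and 5.49 at 16 weeks. At each later age the mice overlapped those of 4 weeks. The log2 fold change was -0.42 at 8 relative to 4 weeks (limma adjusted p = 0.117) and -0.45 at 16 relative to 4 weeks (limma adjusted p = 0.138). Its other probe set had -0.74 at 8 relative to 4 weeks, and with the mean of both the difference of -0.58 passed the test (limma adjusted p = 0.0464), as did the difference of -0.59 without replicate 2 of 8 weeks (limma adjusted p = 0.049). Mmp9, the gelatinase of white blood cells, averaged 5.06 at 8 weeks and 4.95 at 4 weeks (limma adjusted p = 0.64).

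Mmp14 encodes the membrane-type enzyme that, together with Timp2, activates proMMP2 at the cell surface. Its signals were 6.01, 5.51, 6.44, 5.41 and 5.74 at 4 weeks, 5.50, 5.96, 5.73, 5.38 and 5.23 at 8 weeks, 5.99, 5.81, 5.81, 5.65 and 5.86 at 12 weeks and 6.70, 6.21, 5.59, 5.79 and 6.84 at 16 weeks. Mice of 16 weeks were among the highest and overlapped all other ages, and the log2 fold change at 16 relative to 4 weeks was 0.40 (95% interval -0.07 to 0.87, limma adjusted p = 0.283). The other probe sets of Mmp14 had 0.02 and 0.01 in this comparison. The other membrane-type members, Mmp17 and Mmp24, had log2 fold changes of 0.27 and 0.24 at 8 relative to 4 weeks (limma adjusted p = 0.254 and 0.251).

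Mmp23 encodes an enzyme that is anchored in the membrane by its prodomain and released by cleavage. Its signals were 5.30, 5.21, 5.48, 5.35 and 5.06 at 4 weeks, 5.34, 5.39, 5.49, 5.10 and 5.66 at 8 weeks, 5.19, 5.07, 4.64, 5.09 and 5.00 at 12 weeks and 5.27, 5.75, 5.40, 5.78 and 5.34 at 16 weeks. The lowest mouse of 16 weeks lay above the highest of 12 weeks, the 1 member of 37 without overlap in this comparison, against 2.65% of all genes (0.791% higher). The log2 fold change of 0.51 (95% interval 0.21 to 0.80) did not pass the test (limma adjusted p = 0.153), nor did that of -0.40 at 12 relative to 8 weeks (limma adjusted p = 0.178). It passed without replicate 1 of 16 weeks (log2 fold change 0.57, limma adjusted p = 0.035) and with array weights (0.47, limma adjusted p = 0.0328). The second probe set of the gene had log2 fold changes of 0.24 at 16 relative to 12 weeks and 0.02 at 12 relative to 8 weeks.

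**Figure D2:**
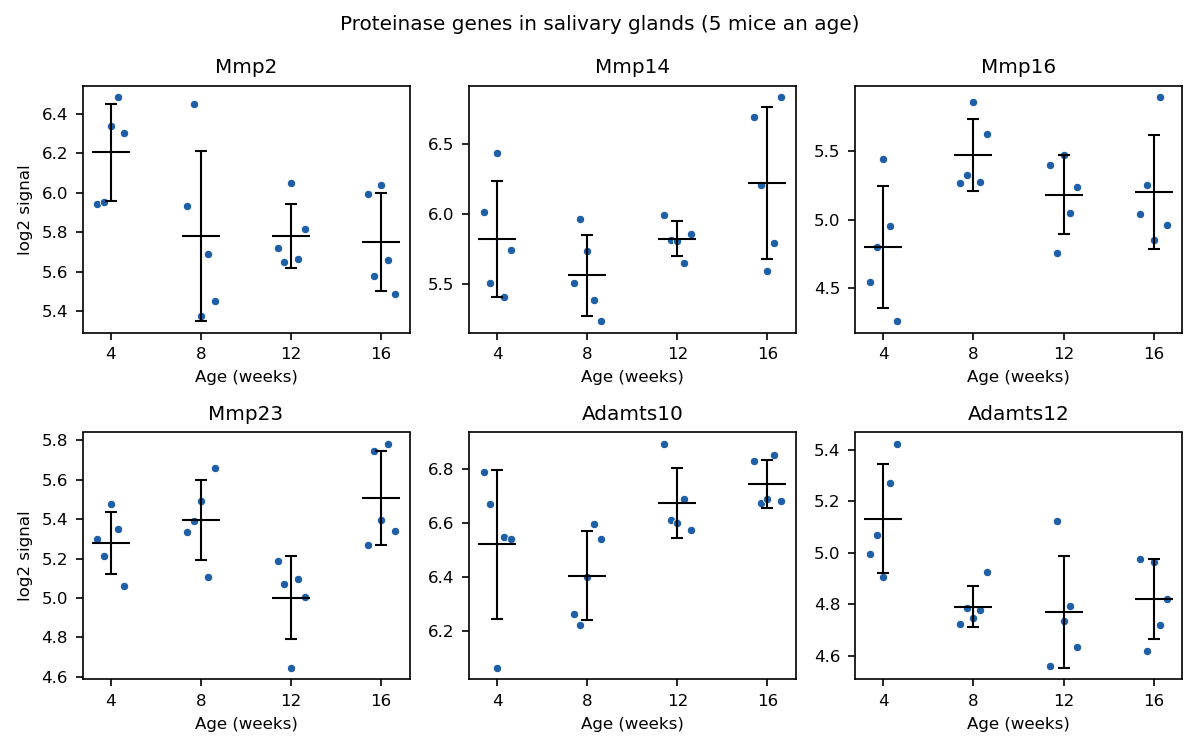
Log2 signal by age in weeks for 6 proteinase genes, 1 point a mouse, with bars for the mean and SD of 5 mice. For Mmp23 the mice of 16 weeks (5.27 to 5.78) lie above those of 12 weeks (4.64 to 5.19), and for Mmp2, Mmp14, Mmp16, Adamts10 and Adamts12 neighbouring ages overlap.

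Between 8 and 12 weeks 0 of 37 members passed the test, against 0.00550% of all genes, and 2 did at an unadjusted p under 0.05, against 18.8%. Signs were positive for 7 of 37 members and 44.1% of all genes. Between 12 and 16 weeks 0 of 37 passed, against 0.192%, and 2 did at an unadjusted p under 0.05, against 14.2%, with positive signs for 25 of 37 members and 46.8% of all genes. Over the 4 ages together 0 of 37 passed the F-test of limma, against 2.60% of all genes, and 5 did at an unadjusted p under 0.05, against 25.9%. Mmp3, named after its values were seen, was the 1 member whose mice of 12 weeks (3.55, 3.57, 3.93, 3.58 and 3.44) did not overlap those of 8 weeks (3.06, 3.43, 3.42, 3.21 and 3.41), against 5.34% of all genes (3.39% higher), and its log2 fold change was 0.31 (limma adjusted p = 0.316).

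Of the 15 Adamts genes, 8 had a positive sign at 8 relative to 4 weeks, 4 at 12 relative to 8 weeks and 12 at 16 relative to 12 weeks. Positive signs were had by 54.8%, 44.1% and 46.8% of all genes in these comparisons. The 7 members that cleave proteoglycans had log2 fold changes of -0.25 to 0.48 at 8 relative to 4 weeks, positive for 4. Of these 7, 0 passed the test, against 7.39% of all genes. Adamts4, an aggrecanase, had 4.57, 4.78, 5.72, 4.73 and 4.91 in the mice of 8 weeks, against 4.28, 4.38, 4.89, 4.39 and 4.37 in those of 4 weeks, which overlapped by 1 mouse of 4 weeks (log2 fold change 0.48, limma adjusted p = 0.078). Adamts8 and Adamts9 had log2 fold changes of 0.34 and 0.42 (limma adjusted p = 0.128 and 0.0991), while Adamts1 and Adamts5 had -0.25 and -0.19 (limma adjusted p = 0.192 and 0.349). Adamts3, which removes the N-propeptide of procollagens, had 0.41 (limma adjusted p = 0.13).

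Adamts12, which can cleave cartilage oligomeric matrix protein, had 5.00, 5.07, 4.90, 5.27 and 5.42 at 4 weeks, 4.72, 4.78, 4.75, 4.78 and 4.92 at 8 weeks, 4.56, 5.12, 4.74, 4.79 and 4.63 at 12 weeks and 4.98, 4.62, 4.96, 4.72 and 4.82 at 16 weeks. Only 1 mouse of 8 weeks reached the lowest mouse of 4 weeks. The log2 fold changes were -0.34 at 8 relative to 4 weeks (limma adjusted p = 0.0834) and -0.31 at 16 relative to 4 weeks (limma adjusted p = 0.145), and the other probe set of the gene had the opposite sign at both ages, 0.19 and 0.04.

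Adamts10, which binds fibrillin, had 6.79, 6.67, 6.06, 6.55 and 6.54 at 4 weeks, 6.26, 6.22, 6.40, 6.60 and 6.54 at 8 weeks, 6.89, 6.61, 6.60, 6.69 and 6.57 at 12 weeks and 6.83, 6.67, 6.69, 6.85 and 6.68 at 16 weeks. Mice of 12 and 8 weeks overlapped only between 6.57 and 6.60, and the log2 fold change of 0.27 had a limma adjusted p of 0.266, while the other probe set of the gene had -0.21. Of the other Adamts members, Adamts18 had 5.31, 5.40, 6.32, 5.42 and 6.07 at 8 weeks, against 5.43, 5.13, 5.40, 5.36 and 4.25 at 4 weeks. A pair of mice of 8 weeks lay far above the rest and 1 mouse of 4 weeks far below, and the log2 fold change of 0.59 had a limma adjusted p of 0.0969.

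The inhibitors were the group in which a test was passed. Timp3 (chosen probe set 1449335_at) had log2 signals of 6.21, 6.25, 6.76, 6.96 and 7.28 at 4 weeks, 6.00, 6.61, 6.42, 6.65 and 6.54 at 8 weeks, 6.27, 6.10, 6.54, 6.65 and 6.80 at 12 weeks and 6.12, 5.76, 6.31, 5.92 and 5.51 at 16 weeks. Of the mice of 16 weeks, 4 of 5 lay below all 5 of 4 weeks. Timp3 averaged 5.92 ± 0.31 at 16 weeks and 6.69 ± 0.46 at 4 weeks (SD, n = 5 each), with a log2 fold change of -0.77 (standard error 0.21, 95% interval -1.20 to -0.34, limma adjusted p = 0.0446). It was the 1 of 37 members called in this comparison, against 3.63% of all genes (3.12% lower). At an unadjusted p under 0.05 there were 3 members, all with negative signs, against 24.2% of all genes (15.2% lower). In this comparison 0 members were without overlap, against 3.07% of all genes, and signs were positive for 30 of 37 members and 50.9% of all genes. At 16 relative to 12 weeks the log2 fold change was -0.55 and did not pass (limma adjusted p = 0.267).

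The call lay near the threshold. It was lost in 11 of 20 fits that left out 1 mouse, namely replicates 3, 4 and 5 of 4 weeks, any mouse of 12 weeks and replicates 2, 4 and 5 of 16 weeks, with log2 fold changes of -0.62 to -0.77 and limma adjusted p of 0.0501 to 0.157. The highest of these p-values came without replicate 5 of 4 weeks. The other 3 probe sets of Timp3 did not pass at 16 relative to 4 weeks, with log2 fold changes of 0.37, 0.19 and -0.38 (limma adjusted p over all 34958 probe sets 0.263, 0.473 and 0.344, with 3.50% of all called). The mean of the 4 had -0.15 (limma adjusted p = 0.417).

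At 8 relative to 4 weeks a pair of the Timp3 probe sets rose, in a test of each probe set on its own (6.44% of all probe sets called). Probe set 1449334_at had 5.69, 5.48, 5.32, 5.08 and 5.44 at 8 weeks, against 4.84, 4.87, 4.79, 4.96 and 4.64 at 4 weeks, without overlap (log2 fold change 0.58, limma adjusted p = 0.0338). Probe set 1419088_at had 5.67, 5.38, 6.26, 5.80 and 6.36 at 8 weeks, against 5.33, 4.99, 5.51, 5.12 and 4.86 at 4 weeks, with overlap by 1 mouse of each age (log2 fold change 0.73, limma adjusted p = 0.0373). The chosen probe set and 1419089_at had -0.25 and -0.37 (limma adjusted p = 0.41 and 0.279). The probe sets of Timp3 thus gave opposite signs in the same mice, and which part of the transcript each one reads was not analysed here.

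**Figure D3:**
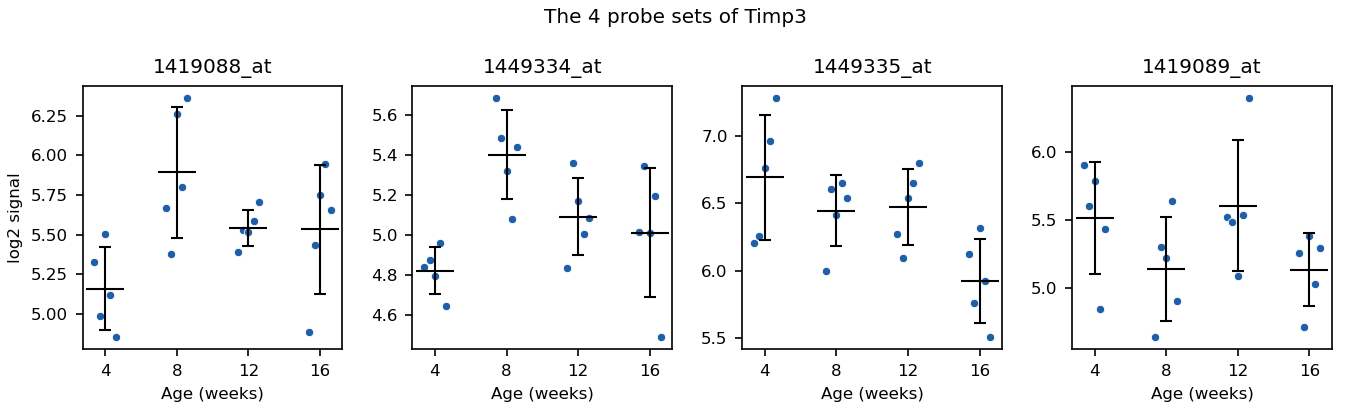
Log2 signal of the 4 probe sets of Timp3 by age in weeks, 1 point a mouse, with bars for the mean and SD of 5 mice. The panels run by the log2 fold change at 8 relative to 4 weeks. The first and second have their highest mean at 8 weeks (5.89 and 5.40), and the third, which stood for the gene, its lowest at 16 weeks (5.92).

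Timp2, the inhibitor that links Mmp14 to proMMP2, had 7.97, 7.95, 7.81, 7.72 and 7.32 at 4 weeks, 8.02, 8.27, 8.11, 8.11 and 8.48 at 8 weeks, 8.15, 7.79, 7.95, 7.96 and 7.87 at 12 weeks and 7.67, 7.85, 8.07, 7.95 and 7.37 at 16 weeks. The mice of 8 weeks lay above all of 4 weeks, the 1 member of 37 without overlap, against 5.75% of all genes (3.79% higher). The log2 fold change of 0.45 (95% interval 0.14 to 0.75) did not pass the test (limma adjusted p = 0.062), except without replicate 1 of 4 weeks (0.50, limma adjusted p = 0.0496), without replicate 1 of 8 weeks (0.49, limma adjusted p = 0.0499) and after cyclic loess (0.87, limma adjusted p = 0.0493). The other 5 probe sets of Timp2 had log2 fold changes of 0.12, 0.05, -0.28, -0.26 and -0.66, and the mean of all 6 had -0.10 (limma adjusted p = 0.6).

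Timp1, a soluble inhibitor, had 4.65, 4.65, 4.99, 4.96 and 4.43 at 4 weeks, 4.92, 4.99, 5.65, 4.96 and 5.28 at 8 weeks, 4.87, 4.81, 5.11, 4.78 and 4.93 at 12 weeks and 4.73, 5.06, 5.00, 5.29 and 4.77 at 16 weeks. Mice of 8 and 4 weeks overlapped between 4.92 and 4.99, and the log2 fold change of 0.42 (95% interval 0.10 to 0.75) had a limma adjusted p of 0.0788. Timp4, an inhibitor best known from the heart, had 4.25, 4.14, 4.12, 4.56 and 4.08 at 4 weeks, 4.07, 4.42, 3.95, 4.20 and 4.56 at 8 weeks, 4.13, 4.03, 3.83, 3.71 and 4.27 at 12 weeks and 3.98, 4.10, 4.56, 4.32 and 4.07 at 16 weeks. All ages of Timp4 overlapped, and its log2 fold change was -0.25 at 12 relative to 8 weeks (limma adjusted p = 0.357), with 0.08 for its other probe set.

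**Figure D4:**
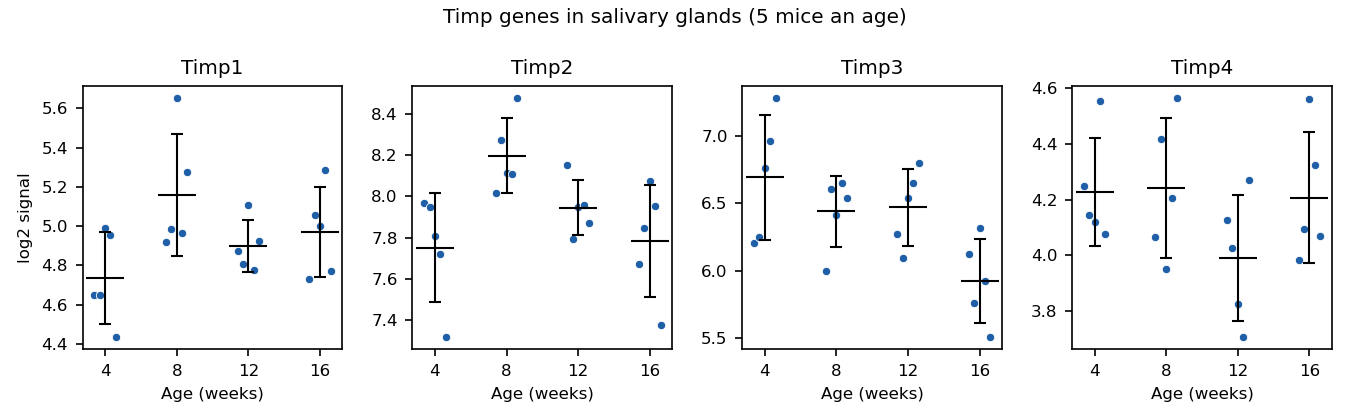
Log2 signal of Timp1 to Timp4 by age in weeks, 1 point a mouse, with bars for the mean and SD of 5 mice (the vertical axes differ). Timp2 at 8 weeks (8.02 to 8.48) lies above 4 weeks (7.32 to 7.97), and 4 of 5 mice of 16 weeks lie below all of 4 weeks for Timp3.

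The spread of signal over whole arrays also differed between 8 and 4 weeks. The SD of all gene values within an array was 1.38 to 1.60 at 8 weeks and 1.55 to 1.90 at 4 weeks. The array of widest spread, replicate 5 of 4 weeks, had the lowest mean of the 37 members, 4.62, and the array of narrowest spread, replicate 5 of 8 weeks, had the highest, 5.09. Not every array followed this order. Replicates 2 and 5 of 16 weeks had narrow spreads of 1.44 and 1.46 with low means of 4.78 and 4.83. With this SD as a covariate the members' median log2 fold change at 8 relative to 4 weeks was 0.04, against 0.07 over all genes, with 22 of 37 positive, and at 16 relative to 4 weeks it was -0.03 with 17 of 37 positive. In this fit 0 members passed in any comparison, and Timp3 had -0.51 at 16 relative to 4 weeks (limma adjusted p = 0.326). Few genes passed in it at all, 16 of 18194 at 8 relative to 4 weeks and 148 at 16 relative to 4 weeks. After cyclic loess the median at 8 relative to 4 weeks was 0.10, with 25 of 37 positive. Whether the spread accounts for the signs was not tested.

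**Figure D5:**
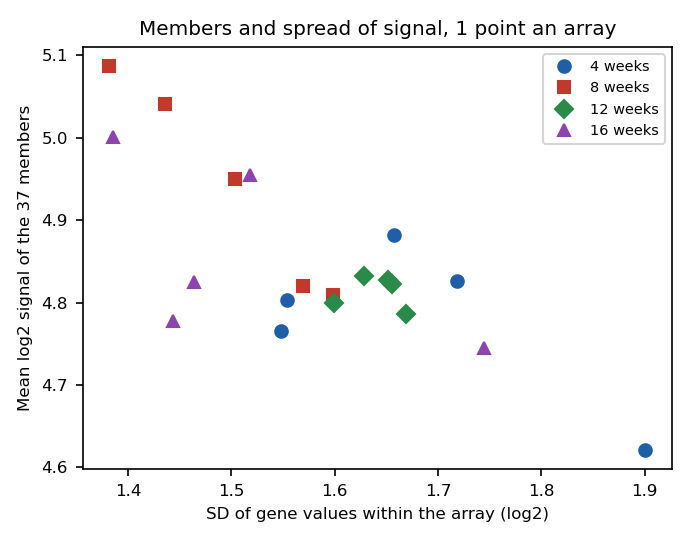
Mean log2 signal of the 37 members (vertical axis) against the SD of all gene values within the same array (horizontal axis), 1 point a mouse, with symbols for the ages. The highest mean, 5.09, lies at the narrowest spread, 1.38, and the lowest, 4.62, at the widest, 1.90. Replicates 2 and 5 of 16 weeks have means of 4.78 and 4.83 at narrow spreads of 1.44 and 1.46.

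Transcripts of proteins that these enzymes cleave were measured on the same arrays, and several collagen genes fell. Of 23 measured genes of matrix substrates, 6 fell and 1 rose at 8 weeks relative to 4 weeks, and at 16 weeks relative to 4 weeks 5 fell and 0 rose. Of all genes 4.13% were lower and 3.26% higher at 8 weeks, and 3.12% lower and 0.506% higher at 16 weeks. Col3a1, a fibrillar collagen, averaged 9.69 at 4 weeks, 7.48 at 8 weeks and 7.37 at 16 weeks, and it fell by 2.21 at 8 weeks and fell by 2.32 at 16 weeks relative to 4 weeks (limma adjusted p = 0.00445 and 0.0023). The basement membrane genes Col4a1, Col4a2 and Nid1 fell by 1.45, 1.38 and 0.98 at 8 relative to 4 weeks (limma adjusted p = 0.0185 each), and Col5a2 and Col1a2 by 0.86 and 1.17 (limma adjusted p = 0.018 and 0.0392). At 16 relative to 4 weeks Col4a2, Col5a2, Nid1 and Col1a1 fell by 1.27, 0.76, 0.81 and 0.79 (limma adjusted p = 0.0189, 0.0191, 0.0313 and 0.0452). Bcan, a proteoglycan known from brain, was higher by 0.82 at 8 weeks (limma adjusted p = 0.0462), a call kept in 7 of 20 fits that left out 1 mouse. Col3a1 alone of these genes passed in both comparisons in all 20 fits that left out 1 mouse (highest limma adjusted p = 0.0245) and with the array's SD as a covariate. In those fits 1 to 7 substrates were lower in either comparison. At 8 weeks the count was 1 without replicate 4 or 5 of 4 weeks or replicate 3 or 5 of 8 weeks, and at 16 weeks it was 1 without replicate 4 or 5 of 4 weeks or replicate 2 or 4 of 16 weeks. In these 2 comparisons the collagenases of the Mmp group had positive signs, 4 of 4 each, with 0 called. Of all genes 54.8% and 50.9% were positive there, with 7.39% and 3.63% called. The signals of Mmp13, Mmp1a and Mmp1b were low, as stated above. With the array's SD as a covariate 22 and 17 of all 37 members were positive, against 27 and 30 without it. A link between the signs of the collagenases and the lower collagen transcripts was not tested.

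Of 40 measured regulators of matrix proteolysis outside the 3 families, 1 rose and 4 fell at 8 weeks relative to 4 weeks. At 16 relative to 4 weeks 1 rose and 2 fell. Of all genes 3.26% were higher and 4.13% lower at 8 weeks, and 0.506% higher and 3.12% lower at 16 weeks. When 1 mouse was left out, 0 to 5 were lower at 8 weeks and 0 to 8 at 16 weeks. With the array's SD as a covariate 0 passed, against 16 of all 18194 genes at 8 weeks and 148 at 16 weeks. Bsg, also known as an inducer of Mmp expression, averaged 8.32 at 4 weeks, 6.43 at 8 weeks and 6.64 at 16 weeks, and it fell by 1.89 at 8 weeks and fell by 1.68 at 16 weeks relative to 4 weeks (limma adjusted p = 0.0181 and 0.0207). The lysosomal proteinase Ctsl fell by 1.70 at 8 weeks and fell by 1.73 at 16 weeks (limma adjusted p = 0.0395 and 0.0456). Adam9, a membrane-bound proteinase, fell by 1.80 and Prss8, an epithelial serine proteinase, fell by 1.26 at 8 weeks (limma adjusted p = 0.0388 and 0.0336). Adam19, of the same family as Adam9, was higher by 0.51 at 8 weeks and by 0.56 at 16 weeks (limma adjusted p = 0.0418 and 0.0415). In the 20 fits that left out 1 mouse, Bsg passed in 16 at 8 weeks and 15 at 16 weeks. Ctsl passed in 14 and 6 of them and Adam19 in 10 and 10, while Adam9 and Prss8 each passed in 14 at 8 weeks. In the comparisons of 12 with 8 weeks and of 16 with 12 weeks, 0 genes of either list passed.

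Fibroblasts make much of the matrix. Of 10 of their markers 3 were lower at 8 than at 4 weeks (Col1a2, Col3a1 and Lum). At 16 relative to 4 weeks 3 were lower (Col1a1, Col3a1 and Lum). Of all genes 4.13% were lower at 8 weeks and 3.12% at 16 weeks. When 1 mouse was left out, Col1a2 passed at 8 weeks in 14 of 20 fits and Col1a1 at 16 weeks in 6. Neither passed there with the array's SD as a covariate. The collagen genes are also among the substrates above, so that Lum, a proteoglycan of fibrillar collagen, was the only other marker called, and 7 of 10 did not pass in each comparison. The mean of the 10 markers on single arrays was 6.96 to 7.43 at 4 weeks, 6.26 to 6.81 at 8 weeks and 6.07 to 7.24 at 16 weeks. Their part in the values of Timp3 was not tested. The 8 measured acinar markers had means on single arrays of 9.06 to 11.6 at 4 weeks, 7.96 to 10.4 at 8 weeks, 8.93 to 10.3 at 12 weeks and 7.89 to 10.2 at 16 weeks. Of these markers 7 of 8 had negative signs at 8 weeks and 8 of 8 at 16 weeks relative to 4 weeks, and Lpo passed at both ages and Smgc at 16 weeks. Single markers of other cells also passed at 8 relative to 4 weeks, where 4.13% of all genes were lower and 3.26% higher. Lower were Myh11, 1 of 6 markers of myoepithelial cells, and Cd68, 1 of 10 of macrophages. Higher were Retn, 1 of 5 of adipocytes, and Cd3e, 1 of 7 of B and T lymphocytes. Signs were negative for 6 of 6 myoepithelial, 6 of 10 macrophage and 3 of 5 adipocyte markers and positive for 6 of 7 lymphocyte markers. All 20 arrays were labelled as from male mice, while Xist had signals of 8.96 to 10.7 and the Y-linked Eif2s3y of 2.07 to 2.97. On every array Xist lay above the 96th percentile of all genes, and Eif2s3y at percentile 4.47 or lower. These 2 genes go against the labelled sex, which was not resolved here.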

How the data were processed

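The authors deposited log2 signals after RMA in Expression Console 1.1, with quantile normalization, for 45101 probe sets on 20 arrays. The values were used as they were. In the platform annotation 34958 probe sets had 1 symbol, 932 had several and 9211 were absent. For each of 18194 genes the probe set of highest mean was used. The ages were fitted together with limma 3.58.1 in R 4.3.3 (lmFit and eBayes), p-values were adjusted by Benjamini and Hochberg over all genes, and the threshold was 0.05.

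The members and lists were chosen with earlier results of these data known. Every mouse's values are given for members that passed, for those of lowest F-test p until there were 8, and for Timp1 to Timp4. Values of Mmp3, Mmp8, Mmp13, Adamts4 and Adamts18 were added after they were seen. Replicates are separate mice, so p-values measure the spread between mice, and the number of arrays limits precision. The study's methods state that the RNA of the mice was isolated concurrently. Scan batches were not analysed here.

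Alternatives were median centring, cyclic loess, the mean of probe sets, every probe set, genes above the 40th percentile of signal only (5.12), the replicate number as a block, only the arrays of the 2 ages compared, limma-trend with robust variances, array weights, the array's SD as a covariate, and leaving out each mouse. The last 2 were applied to the lists of substrates and regulators after seeing the data. Promoter windows were those of RefSeq (GRCm38.p6), and 14 members had none among those used.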

Additional observations from a re-analysis of the deposited data

How the results depend on the processing

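At 8 relative to 4 weeks 0 members passed, against 2 after cyclic loess (Adamts12 and Timp2), 1 with the mean of probe sets (Mmp2) and 1 with every probe set (Timp3). At 16 relative to 12 weeks 0 passed, against 1 with array weights (Mmp23). At 16 relative to 4 weeks Timp3 passed, against 0 members with the mean of probe sets, in the fit to 2 ages alone (limma adjusted p of Timp3 = 0.137) and with the array's SD as a covariate. Leaving out each mouse in turn gave 0 to 3 members at 8 relative to 4 weeks (above 0 in 7 of 20 fits), 0 to 0 at 12 relative to 8 weeks, 0 to 1 at 16 relative to 12 weeks (1 of 20), 0 to 1 at 16 relative to 4 weeks (9 of 20) and 0 to 0 in the F-test. Over all genes the same fits called 14 to 2694, 1 to 225, 9 to 1035, 81 to 3003 and 85 to 2611 genes, in the same order of comparisons. At 16 relative to 4 weeks, with 660 in the fit of all mice, the 81 were without replicate 2 and the 3003 without replicate 1 of 16 weeks, and the array's SD as a covariate gave 148. Among the differences given for the 10 members of the naming rule, the sign turned for Timp2 at 8 relative to 4 weeks with the mean of probe sets (-0.10). Signs of other members also turned, since 30 of 37 were positive at 16 relative to 4 weeks, against 17 with the array's SD as a covariate.

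With the replicate number as a block, 0 members passed at 16 relative to 4 weeks (Timp3: limma adjusted p = 0.0575), and 0 in each other comparison. Pairing by number was checked over all genes, after the mean of its age was subtracted from each gene's values. Arrays of the same number at different ages then had a median r of 0.0144 (-0.567 to 0.583), against -0.000921 for different numbers. Of 20 arrays, 4 were best matched by their own number, so that the numbers did not show a pairing of the mice.

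Signals were low for many members, with 21 of 37 below the 40th percentile of all genes. The largest unadjusted p that passed was 0.0037 at 8 relative to 4 weeks, 1.04e-07 at 12 relative to 8 weeks, 9.2e-05 at 16 relative to 12 weeks and 0.00181 at 16 relative to 4 weeks.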
